A study of Mus musculus with 4 samples.

Results

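The genes encoding the proteins of the cytosolic ribosome were compared between cardiomyocytes of mice with pressure-overloaded hearts and cardiomyocytes of control mice. The genes were chosen by symbol: Rpl or Rps followed by a digit, or Rplp0, Rplp1, Rplp2 or Rpsa, without the S6 kinases (9 symbols that begin with Rps6k) and without 6 symbols that contain -ps. This gave 87 of the 22322 genes listed. By role, 46 encode proteins of the large (60S) subunit and 31 proteins of the small (40S) subunit. A further 7 are paralogs that can stand in for, or resemble, a subunit protein, 2 are retrogenes (Rps27rt and Rps23rg1), and Rps19bp1, a protein that binds Rps19 and is not part of the ribosome, was taken by its symbol alone.

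The study compared 2 libraries from sham-operated mice with 2 libraries from mice after transverse aortic constriction (TAC), in which the aorta is narrowed so that the left ventricle pumps against a high pressure. No genetic change was named for either group. The study's methods describe male mice operated on as young adults, single cells released from the heart by Langendorff perfusion, and total RNA taken from a portion of the myocytes of 1 heart for each library. By the study's account, the hearts were taken weeks after surgery, when those of TAC mice had reached heart failure. The methods draw the samples from pairs of sham and TAC mice, without saying which libraries form a pair. Neither the labels nor the methods say whether libraries of a group came from separate operations or days. The p-values therefore measure only the spread between these libraries, which may be partly technical.

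Each ribosome holds 1 copy of nearly every one of these proteins, and their mRNAs are among the most abundant of most cells. Most of these mRNAs begin with a C followed by an unbroken run of C and T bases, the terminal oligopyrimidine (TOP) tract, through which the kinase mTOR and the RNA-binding protein Larp1 control how well they are translated. In the heart, growth of the myocytes under load is known to go with a greater output of ribosomes, and striated muscle carries its own paralog of Rpl3, called Rpl3l.

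Bases around the transcription start were read from RefSeq (build GRCm38.p6) for 57 of the 77 subunit genes, which have 67 annotated starts there. A run of at least 8 consecutive C or T bases lay within 15 bases on either side of the start in 26 of the 67 (38.8%). Among all 32851 starts in the same table the share was 12%. On the opposite strand the shares were 4.48% and 13.2%. The letters CTTTCC, which can lie inside such a run, were found in 13.4% of the subunit starts and 1.42% of all starts, and CTTTTC in 7.46% and 1.06%. On the opposite strand CTTTCC was found in 0% and 1.27%, and CTTTTC in 1.49% and 0.919%. TATAAA, searched in the 50 bases before the start, was found in 0 of the 67 on either strand, and in 2.63% of all starts on the gene's strand and 1.1% on the other. Below are 2 starts with a long run, then those of Rps27, its paralog Rps27l, the muscle paralog Rpl3l and Rpl10a, to which the results return. Capitals mark the longest run of C and T in the 30 bases, which are written 5′ to 3′ on the gene's strand.
Rpl34: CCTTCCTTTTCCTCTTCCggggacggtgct
Rpl15: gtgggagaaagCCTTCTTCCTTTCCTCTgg
Rps27: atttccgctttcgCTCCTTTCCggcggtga
Rps27l: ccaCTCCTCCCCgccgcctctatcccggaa
Rpl3l: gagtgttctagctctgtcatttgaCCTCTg
Rpl10a: gCTCTatttgagcgcatgcgcaaagcgctc
The windows lie at chr3:130730323-130730352 on the minus strand (Rpl34), chr14:18270972-18271001 on the minus strand (Rpl15), chr3:90213634-90213663 on the minus strand (Rps27), chr9:66946071-66946100 on the plus strand (Rps27l), chr17:24727811-24727840 on the plus strand (Rpl3l) and chr17:28328550-28328579 on the plus strand (Rpl10a). Rpl34 and Rpl15 were picked as examples of a long run, 18 and 17 bases. They are not the longest: the run was 21 bases in Rpl7a, 19 in Rpl27a and 18 in Rpl35. The longest runs of Rps27 and Rps27l were both 9 bases, that of Rpl3l was 5 and that of Rpl10a was 4. Counted from the start, with bases before it negative, the run began at −15 in Rpl34, −4 in Rpl15 and −2 in Rps27. It began at −12 in Rps27l, 10 in Rpl3l and −14 in Rpl10a. The runs of Rps27l and Rpl10a thus ended before the annotated start, and that of Rps27 lay across it. These matches describe the letters only.

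The libraries held 24237777 to 32118323 counts. The 13 protein-coding genes of mitochondrial DNA took 39.8% and 40.8% of the counts in the sham libraries and 47.4% and 40.3% in TAC 1 and TAC 2, so TAC 1 stood apart. Markers of cardiomyocytes, such as Myh6 and Tnnt2, summed to 78249 and 87129 CPM (counts scaled to a common library size by TMM, as explained with the comparison below) in the sham libraries and to 84940 and 81664 in the TAC libraries. Markers of other cells were present at low levels. The summed CPM of 12 endothelial genes was 733 and 591 in sham and 351 and 492 in TAC, that of 12 fibroblast genes 308 and 220 against 137 and 180, and that of 9 mural cell genes 757 and 796 against 440 and 578. For 12 macrophage genes it was 138 and 69.4 against 36.4 and 70, for 8 lymphocyte genes 1.3 and 2.22 against 0.574 and 1.39, and for 5 red blood cell genes 84.9 and 73.7 against 49.9 and 125. Both TAC libraries were below both sham libraries for 11 of 12 endothelial, 11 of 12 fibroblast, 8 of 9 mural, 6 of 12 macrophage, 2 of 8 lymphocyte, 0 of 5 red blood cell and 3 of 12 cardiomyocyte genes, against 30.3% of all genes tested. Both TAC libraries were above both sham libraries for 5 of the 12 cardiomyocyte genes and for 0 genes of the other lists, against 29.8% of all genes. None of the listed genes was at 0 in all libraries. Every ribosomal protein result below was measured in preparations that differ in this way, and the part of the other cells in it was not tested. In such bulk samples, fewer cells of a type and less RNA per cell cannot be told apart.

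The level of each gene was first described by its deposited FPKM (fragments per kilobase of a gene's transcript, relative to the size of its library), which allows genes of different length to be set side by side. Over the 77 subunit genes, the mean FPKM of the 4 libraries ran from 4.74 for Rps20 to 271 for Rps2, with a median of 76.2 and quartiles of 49.2 and 108. Of the 763 genes with a mean FPKM over 50 in these cells, 57 were subunit genes. Although the proteins are needed in equal numbers, their mRNA levels by this measure spanned 57.2-fold, and 23.6-fold without Rps20, the tested member with the longest implied length. The spread between libraries was small beside that range: the median coefficient of variation of a subunit gene was 3.65% between the sham libraries and 8.41% between the TAC libraries.

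**Figure D1:**
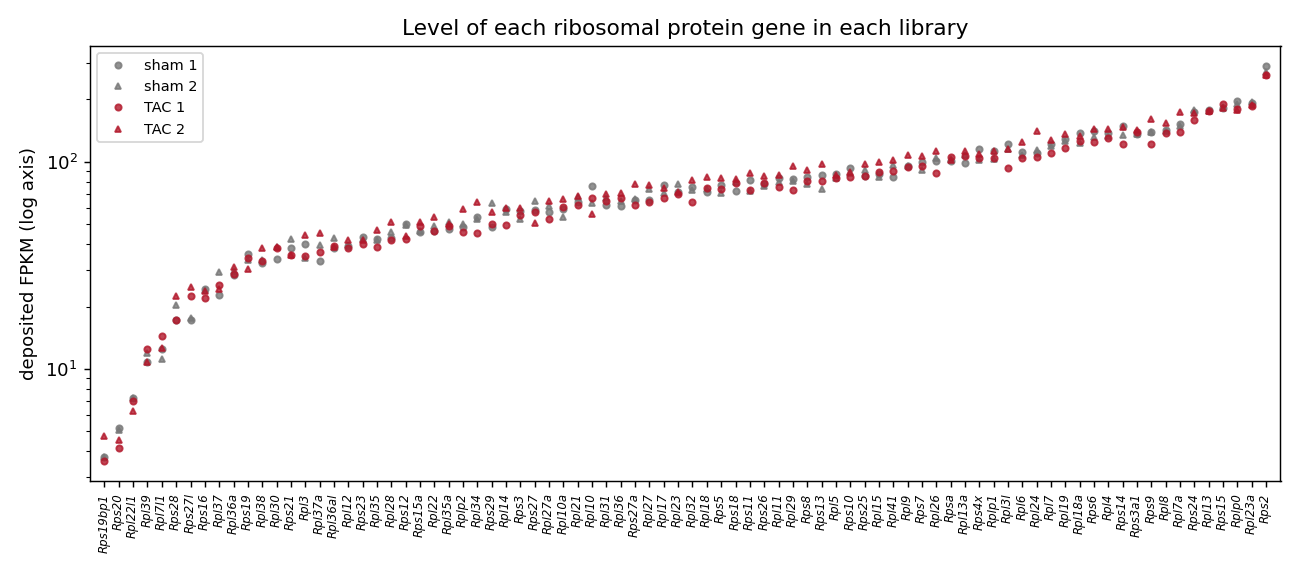
Deposited FPKM (log axis) of 82 ribosomal protein genes with a mean FPKM over 1, ordered by its mean, in sham 1 and sham 2 (grey) and TAC 1 and TAC 2 (red). The order runs from Rps19bp1 (mean 3.96) and Rps20 (mean 4.74) to Rps2 (mean 271), and for most genes the 4 points lie close together.

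The highest levels belonged to Rps2, a small-subunit protein near the entry of the mRNA channel, with an FPKM of 290 and 271 in sham and 263 and 262 in TAC. Rpl23a, a large-subunit protein at the exit of the nascent peptide, stood at 191 and 193 in sham and 185 and 188 in TAC. Rplp0, the base of the stalk that recruits elongation factors, had an FPKM of 197 and 190 in sham and 179 and 178 in TAC. Rps15 (181, 183, 189 and 182 in the order sham 1, sham 2, TAC 1, TAC 2) and Rpl13 (178, 175, 176 and 175) completed the highest 5. For Rps2, Rpl23a and Rplp0 both TAC libraries were thus below both sham libraries in FPKM, while their log2 fold changes from TMM-scaled counts were 0.10, 0.15 and 0.08. The CPM of Rpl23a was 97.3 and 104 in sham and 119 and 104 in TAC, with overlap (edgeR adjusted p = 0.314).

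At the other end, Rps20 had an FPKM of 5.19 and 5.09 in sham and 4.14 and 4.56 in TAC. Its length, as implied by count and FPKM, was 3707 bases, the longest of the tested members, whose median was 732 bases. Rpl39, one of the smallest ribosomal proteins, had 10.8, 12 and 12.5, 10.8. The paralogs Rpl22l1 (7.24, 7.21 and 6.99, 6.29) and Rpl7l1 (12.4, 11.2 and 14.4, 12.6) and the binding protein Rps19bp1 (3.76, 3.75 and 3.6, 4.73) were the other low members. Neighbours in this order, such as Rplp0 and Rps15 with means of 186 and 184, lay within the range of their libraries.

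For the comparison of TAC with sham, the deposited expected counts were scaled by TMM, a method that sets most genes to no average change, and tested with the edgeR quasi-likelihood test. Of the 87 members, 83 had enough counts to be tested. The retrogenes and the paralogs Rpl10l and Rpl39l, both known from the male germ line, were not tested, and their CPM did not exceed 0.158 in any library. Rpl10l had no count in any of them.

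The ribosomal protein genes lay slightly above the other genes in TAC. The log2 fold change was above 0 for 80 of the 83 tested members, against 49.1% of the 12499 genes tested. Most members are short, and among 729 other tested genes with an implied length under 1000 bases the share was 75.7%. The median log2 fold change of the members was 0.20, that is 15.3% higher in TAC, and the range ran from −0.05 (Rps20) to 0.63 (Rps27l). The median over all genes tested was −0.01. The standard error of a single member's log2 fold change had a median of 0.0865.

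Only 2 of the 83 were called at an adjusted p under 0.05 by edgeR, both higher in TAC, among them the paralog Rps27l. Among all genes tested, 5.01% were called, 2.58% higher and 2.43% lower. No member was called lower. At an unadjusted p under 0.05, 41 members were higher and 0 lower, and the shares over all genes were 13.5% and 14%. DESeq2 called 4 members higher and 0 lower, and 7.4% of all genes, 3.58% higher. In 65 of the 83 both TAC libraries were above both sham libraries, against 29.8% of all genes, and in 0 were both below, against 30.3%. The groups overlapped in the other 18. An edgeR adjusted p between 0.05 and 0.1 was found for 18 members (9.53% of all genes), of which 11 belong to the large subunit, 6 to the small subunit and 1 is the paralog Rpl7l1.

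**Figure D2:**
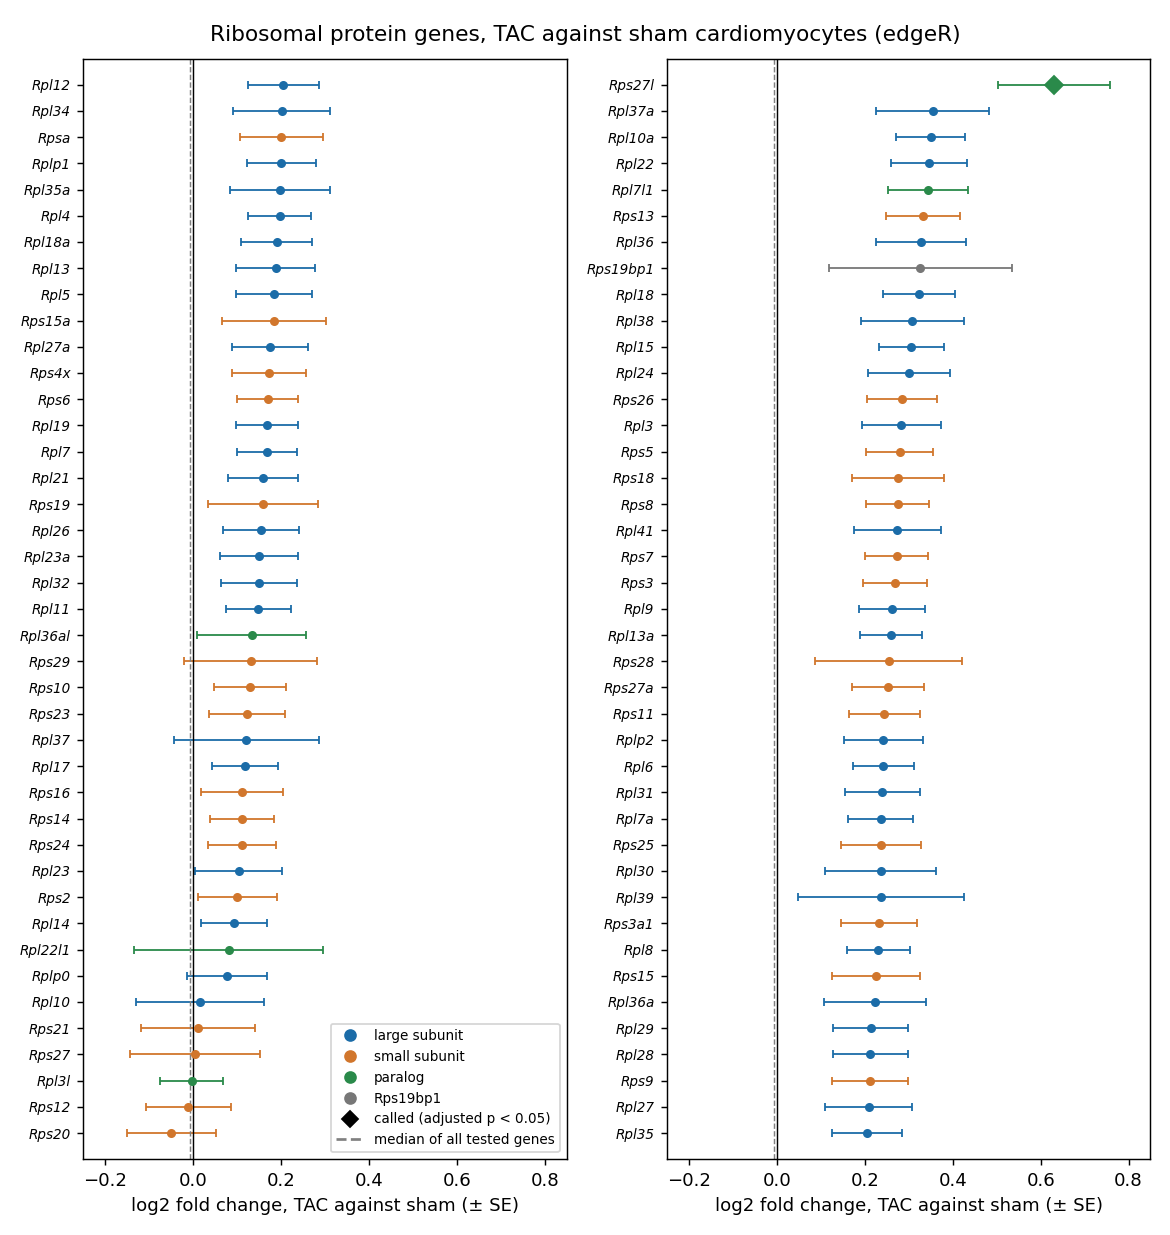
Log2 fold change of TAC against sham with its standard error (edgeR, TMM scaling, 2 libraries a group) for 82 tested ribosomal protein genes, coloured by role; the diamond marks Rps27l, which was called. All but 3 points lie above 0, and the dashed line marks the median of all genes tested, −0.01.

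These counts depend on how the libraries were put on 1 scale and on gene length. Scaling by total counts, the method of the study, moved the median of all genes to −0.20 and that of the members to 0.02, with 0 members called and 4.22% of all genes called, 0.84% higher. The members' median stood 0.22 above that of all genes under that scaling and 0.21 above it under TMM. As a share of all counts, the 77 subunit genes held 0.535% and 0.524% in sham and 0.506% and 0.558% in TAC. The sham values lay between those of TAC, and the difference of the means was 0.00235 percentage points (exact two-sided permutation test, p = 1). Counting error alone gave 95% Wilson intervals of 0.533% to 0.538%, 0.521% to 0.527%, 0.503% to 0.508% and 0.555% to 0.561% in the same order. With the mitochondrial genes left out of the total, the shares were 0.89% and 0.886% in sham and 0.962% and 0.935% in TAC. The difference was then 0.061 percentage points with no overlap, at the smallest p that 2 against 2 libraries allow (exact two-sided permutation test, p = 0.333).

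Under TMM scaling the median fold change differed between short and long genes, and ribosomal protein genes are short. The part of this in the members' values was not tested beyond the correction given here. Among tested genes that are not members, the median log2 fold change was 0.18 for 729 genes with an implied length under 1000 bases, 0.09 from 1000 to 2000 bases, −0.01 from 2000 to 4000 bases and −0.14 above that. The 64 members under 1000 bases had a median of 0.22 and the 17 members from 1000 to 2000 bases a median of 0.18. After the counts were corrected for length within each library, the median of the members was 0.07, that of all genes was 0.04, 60 of 83 members were above 0 (55.1% of all genes) and 0 were called (6.2% of all genes). The median of all genes was then exceeded by 50 of the 83. By limma on log2(FPKM + 1) the median was 0.02 for the members and −0.13 for all genes, again with 0 members called (1.71% of all genes).

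**Figure D3:**
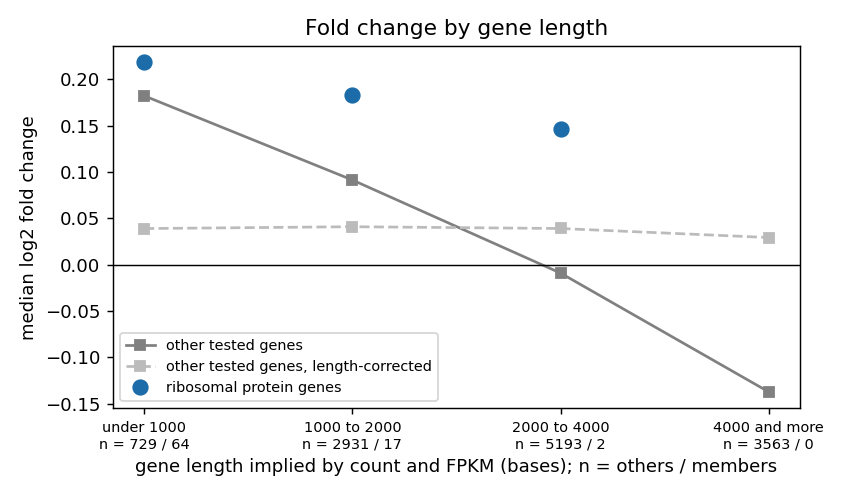
Median log2 fold change of TAC against sham by gene length implied from count and FPKM, for tested genes that are not ribosomal protein genes (grey squares; light squares after length correction) and for the ribosomal protein genes (blue circles, without correction). The grey medians go from 0.18 in the shortest class to −0.14 in the longest, and the blue points lie at 0.22, 0.18 and 0.15 in the classes that have members.

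The large and the small subunit had similar medians, a difference that was not tested. All 46 large-subunit genes had a fold change above 0, with a median of 0.21 and a range from 0.01 to 0.35. Both TAC libraries were above both sham libraries in 39 of them, 25 had an unadjusted p under 0.05, all higher, and 0 were called; over all genes the shares were 29.8%, 13.5% and 2.58%. Of the 31 small-subunit genes, 29 were above 0, with a median of 0.20 and a range from −0.05 to 0.34. In 23 of these the groups did not overlap, 14 had an unadjusted p under 0.05, all higher, and 1 was called. Under length correction the medians were 0.08 and 0.05.

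The libraries of a group also differed among themselves. Of the 77 subunit genes, 59 had a higher CPM in sham 2 than in sham 1, by a median of 0.06 on the log2 scale, and 22 were higher in TAC 2 than in TAC 1, with a median difference of −0.06. Against sham 1, TAC 1 was higher for 77 of 77, with a median difference of 0.27. Against sham 2, TAC 2 was higher for 62 of 77, with a median difference of 0.14. These values rest on TMM scaling, and no share over all genes is given beside them. Summed as a share of all counts, the subunit genes stood lower in sham 2 (0.524%) and TAC 1 (0.506%) than in sham 1 (0.535%). TAC 2 (0.558%) then stood highest. Once mitochondrial genes were left out of the total, TAC 1 (0.962%) was above sham 1 (0.89%) and TAC 2 (0.935%). Sham 2 (0.886%) stayed slightly below sham 1. Without TAC 1, the library with the largest mitochondrial share, the median over the 83 members was 0.17 and 0 were called, where 1.27% of all genes were.

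Rps27l, a paralog of Rps27 and a known target of p53, showed the largest difference of the 83. The gene lies at chr9:66946086-66949516 on the plus strand (GRCm38), is protein-coding and has 4 exons. Its CPM was 7.81 and 8.51 in sham and 12.9 and 12.3 in TAC, with both TAC libraries above both sham libraries. The log2 fold change was 0.63 ± 0.13 (SE), which is 1.55-fold, with an edgeR adjusted p of 0.0404. In deposited FPKM, Rps27l stood at 17.2 and 17.7 in sham and 22.5 and 24.8 in TAC. The call was lost with total counts (log2 fold change 0.44, edgeR adjusted p = 0.151) and with total counts without the mitochondrial genes (0.53, 0.0557). It was also lost after length correction (0.43, edgeR adjusted p = 0.0888) and with limma on log2(FPKM + 1) (0.42, limma adjusted p = 0.0994). With the replicate number as a block it was lost at the same fold change (0.63, edgeR adjusted p = 0.0567). The call did not hold without sham 1 (log2 fold change 0.57) or without TAC 1 (0.59). The log2 fold change stayed between 0.42 and 0.69 over all alternatives.

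Rps27 itself was not called. Its CPM was 18.5 and 21.4 in sham and 22.6 and 17.3 in TAC, and the groups overlapped (log2 fold change 0.00 ± 0.15, edgeR adjusted p = 0.989). Its expected count was whole in sham 1 and not whole in the other libraries. Set against Rps27 within each library, where scaling cancels, the FPKM of Rps27l was 0.292 and 0.275 of that of Rps27 in sham and 0.395 and 0.492 in TAC. On the log2 scale this ratio was 0.64 higher in TAC, without overlap, at the smallest p possible (exact two-sided permutation test, p = 0.333).

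**Figure D4:**
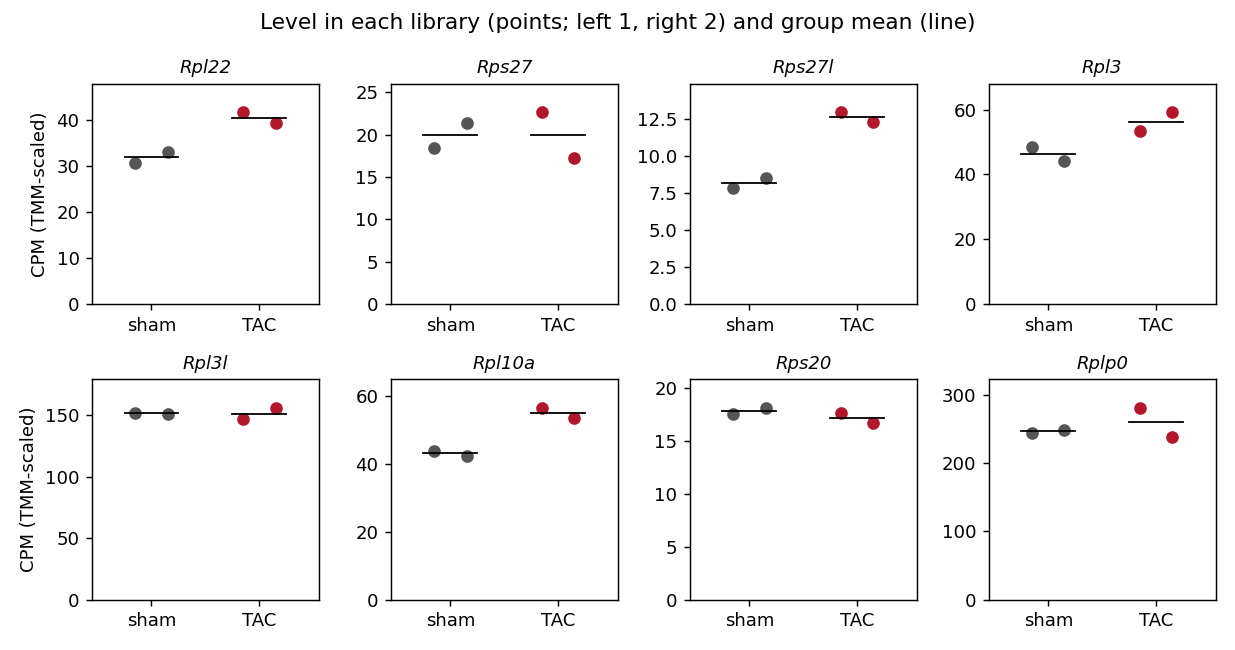
CPM (TMM-scaled) of 8 ribosomal protein genes in each library (points, library 1 on the left of each group) with the group mean (line); each vertical axis starts at 0. Rpl22, Rps27l, Rpl3 and Rpl10a have both TAC points above both sham points, whereas Rps27, Rpl3l, Rps20 and Rplp0 have overlapping groups.

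Next in size came 4 members that fell short of the threshold. Rpl10a, a large-subunit protein at the L1 stalk, had a CPM of 43.9 and 42.3 in sham and 56.4 and 53.5 in TAC (log2 fold change 0.35 ± 0.08, edgeR adjusted p = 0.0501). Rpl37a, a zinc-binding protein of the large subunit, stood at 16.8 and 21.2 against 23.5 and 25.1 (0.35 ± 0.13, edgeR adjusted p = 0.133). Rpl22, an RNA-binding protein of the large subunit, stood at 30.7 and 33.2 against 41.7 and 39.5 (0.35 ± 0.09, edgeR adjusted p = 0.0633). The paralog Rpl7l1 stood at 26.1 and 27.3 against 35.3 and 32.4 (0.34 ± 0.09, edgeR adjusted p = 0.0711). In each of these 4 both TAC libraries were above both sham libraries. Rpl7l1 has an implied length of 2424 bases, and its log2 fold change was 0.36 after length correction, whereas that of Rpl10a was then 0.21 and that of Rpl22 was 0.20.

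Neither Rpl3 nor its muscle paralog Rpl3l was called. Both encode the large-subunit protein close to the peptidyl transferase centre. Rpl3l lies at chr17:24727820-24736143 on the plus strand and Rpl3 at chr15:80077791-80091868 on the minus strand, each with 10 exons. Rpl3l had a CPM of 152 and 151 in sham and 147 and 156 in TAC, with the sham values between those of TAC (log2 fold change −0.00 ± 0.07, edgeR adjusted p = 0.981). Rpl3 had a CPM of 48.4 and 44.1 in sham and 53.4 and 59.2 in TAC, with no overlap, and was not called (log2 fold change 0.28 ± 0.09, edgeR adjusted p = 0.101).

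Per length, Rpl3l was the more abundant of the pair in every library. Its FPKM was 122 and 115 in sham and 93.4 and 115 in TAC, and that of Rpl3 was 40.1 and 34.3 in sham and 34.9 and 44.5 in TAC. The ratio of Rpl3l to Rpl3 was 3.04 and 3.36 in sham and 2.68 and 2.6 in TAC. Both TAC ratios were below both sham ratios, by 0.28 on the log2 scale (exact two-sided permutation test, p = 0.333, the smallest possible). With expected counts in place of FPKM the difference was −0.29.

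The other paralog pairs overlapped between groups in FPKM. Rpl22l1 stood at 0.156 and 0.147 of Rpl22 in sham and at 0.151 and 0.116 in TAC. Rpl36al stood at 1.34 and 1.43 of Rpl36a in sham and at 1.36 and 1.25 in TAC, so that this paralog was above Rpl36a per length in all libraries. Rpl7l1, which takes part in ribosome assembly, stood at 0.102 and 0.0939 of Rpl7 in sham and at 0.131 and 0.099 in TAC. The exact two-sided permutation p was 0.667 for each of these pairs. With expected counts in place of FPKM, the groups did not overlap for Rpl22l1 against Rpl22 (log2 difference −0.28) or Rpl7l1 against Rpl7 (0.17), each at the smallest possible p (exact two-sided permutation test, p = 0.333). No ratio was formed for Rpl10l, Rpl39l or Rps27rt, which were at or near 0, and Rps4l, a relative of Rps4x, was not analysed here. Rps4x itself had a CPM of 102 and 95 in sham and 117 and 105 in TAC (log2 fold change 0.17, edgeR adjusted p = 0.23).

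None of the stalk genes nor Rpsa was called. Rplp0 had a CPM of 243 and 248 in sham and 280 and 238 in TAC, with overlap (log2 fold change 0.08, edgeR adjusted p = 0.62). Its partners Rplp1 (50.9 and 49.6 against 59.7 and 55.8, log2 fold change 0.20) and Rplp2 (29.8 and 31.4 against 34.5 and 37.8, log2 fold change 0.24) did not overlap between groups and were not called (edgeR adjusted p = 0.154 and 0.139). Rpsa, a small-subunit protein also known as the laminin receptor precursor, had a CPM of 173 and 181 in sham and 221 and 186 in TAC (log2 fold change 0.20, edgeR adjusted p = 0.216). Rps2, the most abundant member, stood at 264 and 260 against 302 and 260, with overlap (0.10, edgeR adjusted p = 0.497).

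The lowest fold changes belonged to Rps20, Rps12, Rpl3l, Rps27 and Rps21. Rps20 had a CPM of 17.5 and 18.1 in sham and 17.7 and 16.8 in TAC (log2 fold change −0.05 ± 0.10, edgeR adjusted p = 0.782). Rps12 had 26.4 and 27.7 against 28.3 and 25.3 (−0.01), and Rps21 had 13.7 and 16 against 16 and 13.9 (0.01). In each of the 5 the groups overlapped. Rpl10, which enters the large subunit late in its assembly, also overlapped, at 47.5 and 42.8 against 52.8 and 38.4 (0.01 ± 0.15). Of the 87 members, 18 had expected counts that were not whole in at least 1 library. Whether their fragments were divided among similar genes was not tested.

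Rps19bp1 was low, at a CPM of 2.88 and 3.02 in sham and 3.48 and 3.93 in TAC (log2 fold change 0.33 ± 0.21, edgeR adjusted p = 0.344).

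**Figure D5:**
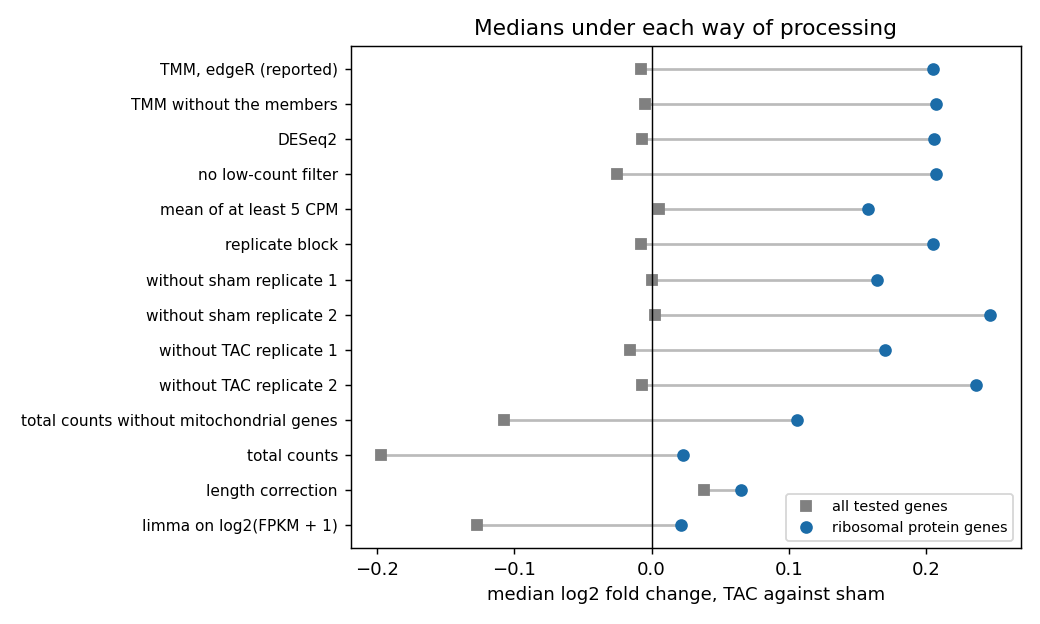
Median log2 fold change of TAC against sham over the ribosomal protein genes (blue circles) and over all genes tested (grey squares) under 14 ways of scaling, filtering and testing. The members lie above all genes in each, by 0.03 after length correction and by up to 0.24 without sham replicate 2.

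Genes that work with the ribosome were given by lists. Fau, the ubiquitin-like fusion of a small-subunit protein, had a CPM of 29.1 and 30.1 in sham and 34.7 and 31.9 in TAC (log2 fold change 0.17, edgeR adjusted p = 0.252). Rack1, a scaffold on the small subunit, stood at 101 and 97 against 120 and 116 (0.25, edgeR adjusted p = 0.0814).

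Of the 30 ribosome assembly genes, 25 had a fold change above 0 (49.1% of all genes), 13 were higher and 0 lower at an unadjusted p under 0.05 (13.5% and 14% of all genes) and 1 was called higher (2.58% of all genes), with a median of 0.29 that was 0.25 after length correction and 0.10 with total counts. The called gene was Gnl3, a nucleolar GTPase also known as nucleostemin, with a CPM of 12.3 and 13.5 in sham and 19.2 and 18.5 in TAC (log2 fold change 0.55, edgeR adjusted p = 0.0368). Of 14 genes of RNA polymerase I and its factors, which make ribosomal RNA, 12 were above 0 and 0 were called by edgeR (median 0.16, −0.03 with total counts and 0.22 after length correction). At an unadjusted p under 0.05, 4 of them were higher and 1 lower, against 13.5% and 14% of all genes.

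The other mRNAs known to carry a TOP tract, mostly elongation and initiation factors, had a median of 0.14 that was −0.04 with total counts and 0.10 after length correction, with 14 of 17 above 0 (49.1% of all genes) and 0 called in either direction by edgeR. At an unadjusted p under 0.05, 6 of the 17 were higher and 1 lower, against 13.5% and 14% of all genes. The lower one was Eef1a1, which delivers aminoacyl-tRNA to the ribosome and is named here after its values were seen, with a CPM of 253 and 207 in sham and 139 and 185 in TAC (log2 fold change −0.50, edgeR adjusted p = 0.0877). Among 17 regulators of ribosome production, 10 were above 0 and the median was 0.06, which was −0.13 with total counts and 0.18 after length correction. Eif4ebp1, the repressor of cap-dependent initiation that mTOR phosphorylates, was called higher, with a CPM of 20.6 and 21.7 in sham and 29.2 and 28.2 in TAC (log2 fold change 0.44, edgeR adjusted p = 0.0423). Among 9 further elongation and initiation genes (median 0.14, −0.05 with total counts and 0.28 after length correction), Eif4a1, an RNA helicase of the initiation complex, was called higher, at 99.5 and 111 against 150 and 136 (0.44, edgeR adjusted p = 0.0364). Of 8 tested genes with Rps6k symbols (median −0.04, −0.23 with total counts and 0.08 after length correction), 1 was called, lower in TAC: Rps6ka5, a kinase of the mitogen and stress response, at 8.82 and 10.3 against 5.88 and 5.32 (−0.77, edgeR adjusted p = 0.0407). Over all lists 5 of 98 tested genes were called (5.1%, against 5.01% of all genes). With total counts 2 were called and after length correction 8.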

How the data were processed

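RNA-seq of cardiomyocytes was analysed for 2 sham and 2 TAC libraries, grouped and numbered by the sample titles. The authors' deposited tables give an expected count and an FPKM for every gene of a library. The submitters' processing notes name mm10, Bowtie2 2.2.8 and StringTie 1.3.1, without their roles. Annotation and strand use were not given in the sources, so overlapping and antisense genes cannot be separated. Counts were rounded, filtered with filterByExpr, scaled by TMM (factors 1.1, 1.04, 0.868 and 1.01) and tested without a block in edgeR 4.0.16 (R 4.3.3) with Benjamini-Hochberg adjustment over 12499 genes. Common biological variation was 10.5%. CPM used TMM-scaled library sizes. Gene length was implied by deposited count and FPKM, and the length correction used a loess (span 0.5) in each library. FPKM was tested by limma 3.58.1 on log2(FPKM + 1) and log2(FPKM + 0.1), so those fold changes understate low genes. Other alternatives were DESeq2 1.42.0, other scalings and filters, blocks and leaving out each library. Single values used exact permutation tests in scipy 1.17.1. Replicates were kept apart, since their counts differed beyond sampling noise (chi-square per degree of freedom over the members 3.9 for sham and 7.69 for TAC). On simulated counts of 12354 genes for this comparison, edgeR called 83.7% of genes changed by 1 log2 unit, 100% of those changed by 2, and 2 unchanged genes. Gene positions came from GENCODE M21 (GRCm38, matched for all 87 members) and start sequences from RefSeq, with the start nearest to GENCODE's shown. Named members were those called, the 5 highest and 5 lowest in fold change and in FPKM, the paralog pairs, the stalk, Rpsa and Rps19bp1, and in the other lists the called and the fusion genes, without a few results that are not reported here; Rpl10 copies and printed starts were added after values were seen. The members and lists were chosen with earlier results of these data known.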

Additional observations from a re-analysis of the deposited data

Results flagged for a closer look

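Rpl10-ps3, a copy of Rpl10 that its symbol kept out of the set, had counts in every library, a signal outside the genes compared. Its CPM was 43.5 and 42.5 in sham, 50.5 in TAC 1 and 64 in TAC 2 (log2 fold change 0.41 ± 0.12, edgeR adjusted p = 0.0816). The CPM of Rpl10 and Rpl10-ps3 together was 91.1 and 85.2 in sham and 103 and 102 in TAC. In TAC 2 the value of Rpl10 was the lowest of the 4 libraries and that of the copy the highest. The counts of both were not whole. Whether fragments were divided between them was not tested.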

How the results depend on the processing

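The number of members called higher was 2 as reported, 0 with total counts (with or without the mitochondrial genes), the replicate block, length correction (with or without the block), FPKM in limma at either pseudocount and an adjusted p under 0.01, 1 under a filter of 5 CPM on average, 4 with DESeq2, 9 without a low-count filter and 20 at an adjusted p under 0.1. It was 0 to 2 when a library was left out. The number called lower was 0 in all of these. Over all genes, 2.58% were called higher as reported, 0.84% with total counts, 1.5% without the mitochondrial genes, 2.14% with the replicate block, 3.88% with length correction (with or without the block), 0.552% and 0.544% with FPKM in limma, 0.56% at an adjusted p under 0.01, 2.93% under the 5 CPM filter, 3.58% with DESeq2, 4.41% without a filter, 7.02% at an adjusted p under 0.1 and 0.864% to 3.39% when a library was left out. The lists of other genes held 5 calls as reported, 2 with total counts, 3 without the mitochondrial genes, 20 without a filter, 1 with the replicate block, 8 and 9 with length correction without and with the block, 12 with DESeq2, 0 with FPKM in limma and at an adjusted p under 0.01, 27 at an adjusted p under 0.1, and 0 to 8 when a library was left out. In either direction, 5.01% of all genes were called as reported, 4.22% with total counts, 4.53% with the replicate block, 6.2% and 7.9% with length correction without and with the block, 7.4% with DESeq2, 10.5% without a filter, 14.5% at an adjusted p under 0.1 and 1.27% to 8.36% when a library was left out. The methods name pairs of mice, but the deviations of sham 1 and TAC 1 from their group means did not go together. Their correlation was −0.28 over genes of at least 5 CPM and −0.09 over the members. A crossed pairing, added after seeing the data, gave 23 members and 27 list genes, and 17% of all genes (7.74% higher).

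The median of all members, of the large and of the small subunit was 0.0227, 0.024 and 0.0045 with total counts, 0.11, 0.11 and 0.10 without the mitochondrial genes, 0.16, 0.16 and 0.15 under the 5 CPM filter, 0.0651, 0.0753 and 0.0521 with length correction, 0.0639, 0.0754 and 0.0513 with length correction and block, 0.0218, 0.0205 and 0.0218 with limma on log2(FPKM + 1), and 0.022, 0.0208 and 0.022 on log2(FPKM + 0.1). With a library left out it was 0.16 to 0.25, 0.17 to 0.26 and 0.14 to 0.23. The difference in share of counts was 0.061 percentage points without the mitochondrial genes, −0.0326 of summed FPKM, and −0.0238 to 0.0285 with a library left out.

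Of the comparisons of 28 tested named members with an alternative, 466 neither gained nor lost a call, 13 gained a call, 23 lost one and 0 turned the direction of a call. Why these values moved was not tested. With 2 libraries a group, a permutation test of 1 value cannot go below p = 0.333, and the spread used by edgeR is pooled over genes. When a library is left out, the lone library is assumed to vary like the other group. The depth is ample for the subunit genes (135262 to 162469 counts a library) and thin for the retrogenes, Rpl10l and Rpl39l.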
